A study of Mus musculus with 8 samples.

Results

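The 9 genes described here are members of the BCL2 family and the caspases that start apoptosis. They were chosen by name, and all 9 were found among the 52636 genes of the count table. RNAseq was performed on S0 cells from mouse fetal livers at E12.5, which the labels call erythroid precursors, in 4 WT and 4 DKO libraries. DKO embryos lack both Vps13a and Vps13c, which encode bridge-like lipid transfer proteins, and came from intercrosses of Vps13a+/-/Vps13c-/- mice on a C57BL/6J background. The Vps13a allele had lost an exon through a deleter Cre driven by the β-actin promoter, and the Vps13c deletion was carried through the germline. WT libraries are those labelled wild type, so that WT and DKO differ at both genes and the single knockouts were not analysed here. Parents that are Vps13c-/- give no embryo that is wild type at Vps13c. WT embryos so labelled are thus not littermates from these intercrosses. Litters are not given in the labels used here, so that litter and genotype cannot be told apart. S0 cells are the fraction of live fetal liver cells that carry neither lineage markers nor the erythroid surface proteins CD71 and Ter119, and no source used here states whether each library is 1 embryo. The p-values therefore measure the spread between libraries. The study also found fewer live cells, as a percentage by trypan blue, in dissociated DKO livers before sorting. By immunostaining it detected cleaved caspase-3 in DKO embryos, mostly in liver and lower brain stem, and almost none in Vps13a+/-/Vps13c-/- controls. Both results concern whole livers or embryos, not sorted cells. The comparison here asks whether transcripts of the genes that decide between survival and death differed in the S0 cells that were sorted as live.

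Proteins of the BCL2 family act at the outer membrane of mitochondria. The survival members BCL2, BCL-XL (from Bcl2l1) and MCL1 hold in check the pore-forming members BAK (from Bak1) and BAX, and the BH3-only members BIM (from Bcl2l11), BID and BAD tip this balance toward death. Once the membrane is permeable, cytochrome c drives APAF1 to activate caspase 9, while caspase 8 is activated at death receptors and can cleave BID, which joins both routes. BCL-XL and MCL1 are both known to be needed for the survival of erythroid precursors.

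Of the 9 members, Casp8 and Bcl2l1 fell in DKO and none rose. The fall of Bcl2l1 was close to the threshold used, and its groups overlapped. All 9 passed the filter on low counts, which left 17378 genes. In the quasi-likelihood test of edgeR with adjusted p under 0.05, 2 members were lower and 0 higher, beside 10.8% of all genes tested that were lower, 10.7% that were higher and 21.6% in either direction. At an unadjusted p under 0.05 the counts were 3 lower, Bak1 being the addition, and 0 higher, beside 36.3% of all genes in either direction, and DESeq2 also called 2 lower and 0 higher. No member changed by more than 1 on the log2 scale, whereas 2.43% of all genes fell and 6.19% rose by more than that with an adjusted p under 0.05. The median log2 fold change of the members, DKO against WT, was -0.24. It was 0.03 over all genes and -0.07 over the 9765 genes at least as abundant as the least abundant member, of which 27.6% were called in either direction. The split over all genes depended on the scaling, since upper-quartile scaling gave 14.3% higher and 7.15% lower, with 1 member lower and 0 higher.

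The promoters of both genes that fell are shown because these are the members that passed the test. They come from RefSeq on GRCm38.p6 and span 250 bases before to 50 bases after a start site, read in the direction of the gene. Casp8 had 1 such window and Bcl2l1 had 3, of which the outermost are given. The Casp8 window lies inside the annotated gene, which begins at 58795374, so the upstream end of Casp8 was not searched. Capitals mark AGATAA, the motif bound by GATA factors.
Casp8, chr1:58802252-58802551, plus strand: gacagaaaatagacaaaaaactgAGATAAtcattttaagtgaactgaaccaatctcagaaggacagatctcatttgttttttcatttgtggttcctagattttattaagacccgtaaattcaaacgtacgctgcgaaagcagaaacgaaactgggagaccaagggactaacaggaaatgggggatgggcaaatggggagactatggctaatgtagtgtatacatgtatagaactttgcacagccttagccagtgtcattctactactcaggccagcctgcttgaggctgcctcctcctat
Bcl2l1 most downstream start, chr2:152828440-152828739, minus strand: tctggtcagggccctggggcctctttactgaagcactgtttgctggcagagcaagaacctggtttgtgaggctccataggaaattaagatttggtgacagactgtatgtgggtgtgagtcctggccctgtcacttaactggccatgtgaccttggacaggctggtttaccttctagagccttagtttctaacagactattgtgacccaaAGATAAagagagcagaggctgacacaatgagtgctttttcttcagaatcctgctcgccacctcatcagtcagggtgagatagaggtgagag
Bcl2l1 most upstream start, chr2:152831679-152831978, minus strand: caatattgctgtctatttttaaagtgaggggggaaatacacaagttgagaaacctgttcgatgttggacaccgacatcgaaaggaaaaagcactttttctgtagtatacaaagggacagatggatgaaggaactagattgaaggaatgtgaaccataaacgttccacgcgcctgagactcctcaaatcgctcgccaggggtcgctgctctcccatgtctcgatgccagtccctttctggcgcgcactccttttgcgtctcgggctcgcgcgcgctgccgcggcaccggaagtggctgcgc
On both strands of the 13 windows of the 9 members, 4 motifs were searched, AGATAA, the STAT motif TTCNNNGAA, the IRF motif (GAAA, any 2 bases, GAAA) and the ATF4-CEBP motif TGATGNAA. The only matches were AGATAA at position -227 of Casp8 and at position -41 of the downstream start of Bcl2l1, counted from the start site. Of all 32851 promoter windows of the same length, 11.2% held AGATAA, 8.3% the STAT motif, 3.44% the IRF motif and 3.97% the ATF4-CEBP motif. A match describes the letters of the window and does not show that a factor was bound.

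The targeted genes were examined first. Vps13a had 1981, 2109, 1856 and 1825 normalized counts in WT replicates 1 to 4 and 856, 607, 675 and 1039 in DKO replicates 1 to 4. Normalized counts here are raw counts brought to a common library size, the mean of the TMM-adjusted sizes. The groups were fully separate for this gene, whereas counts of Vps13c over the whole gene overlapped, with 504 to 664 in WT and 518 to 1088 in DKO, and do not check the label. Total counts were 42114489 to 50886469 per WT library and 36981439 to 42587815 per DKO library. Xist was at 0 to 30.1 in WT and at 27043, 18029 and 21393 in DKO replicates 1, 2 and 4, while the Y-linked Ddx3y was at 2911 to 3354 in WT, at 2516 in DKO replicate 3 and at most 41.0 in the other DKO libraries. All WT libraries and 1 DKO library thus had Y-linked transcripts, and sex and genotype cannot be told apart in the remaining comparison. The sorted fraction was checked against its markers. All 10 erythroid markers were detected in every library, with a summed level of 41053 to 48143 in WT and 37263 to 57771 in DKO, and 2 of the 10 rose. Markers of hepatoblasts summed to 430072 to 600842 in WT and 138609 to 509004 in DKO, so that hepatoblast transcripts were abundant in both genotypes, and 0 of 8 passed the edgeR test, with 4 lower at an unadjusted p under 0.05. Markers of mesenchyme rose in 7 of 7 cases, from a summed level of 1730 to 5403 in WT to 12449 to 43689 in DKO, highest in DKO replicate 1, and none was at 0 in any library. Stem and progenitor markers fell in 5 of 8 cases and neutrophil and mast cell markers in 4 of 8, the latter from 104713 to 137304 in WT to 5688 to 47336 in DKO, lowest in DKO replicate 1. The marker sums of the remaining lists were 55304 to 63869 in WT and 40852 to 118382 in DKO for megakaryocytes, 2752 to 3623 and 1660 to 1999 for endothelium, 537 to 868 and 265 to 627 for macrophages, and 302 to 380 and 77.3 to 201 for lymphoid cells, and the lymphoid markers Rag1, Cd3e and Dntt were at 0 in every DKO library. The part of these differences in the results below was not tested, and in bulk RNA fewer cells of a type and less RNA per cell cannot be told apart.

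**Figure D1:**
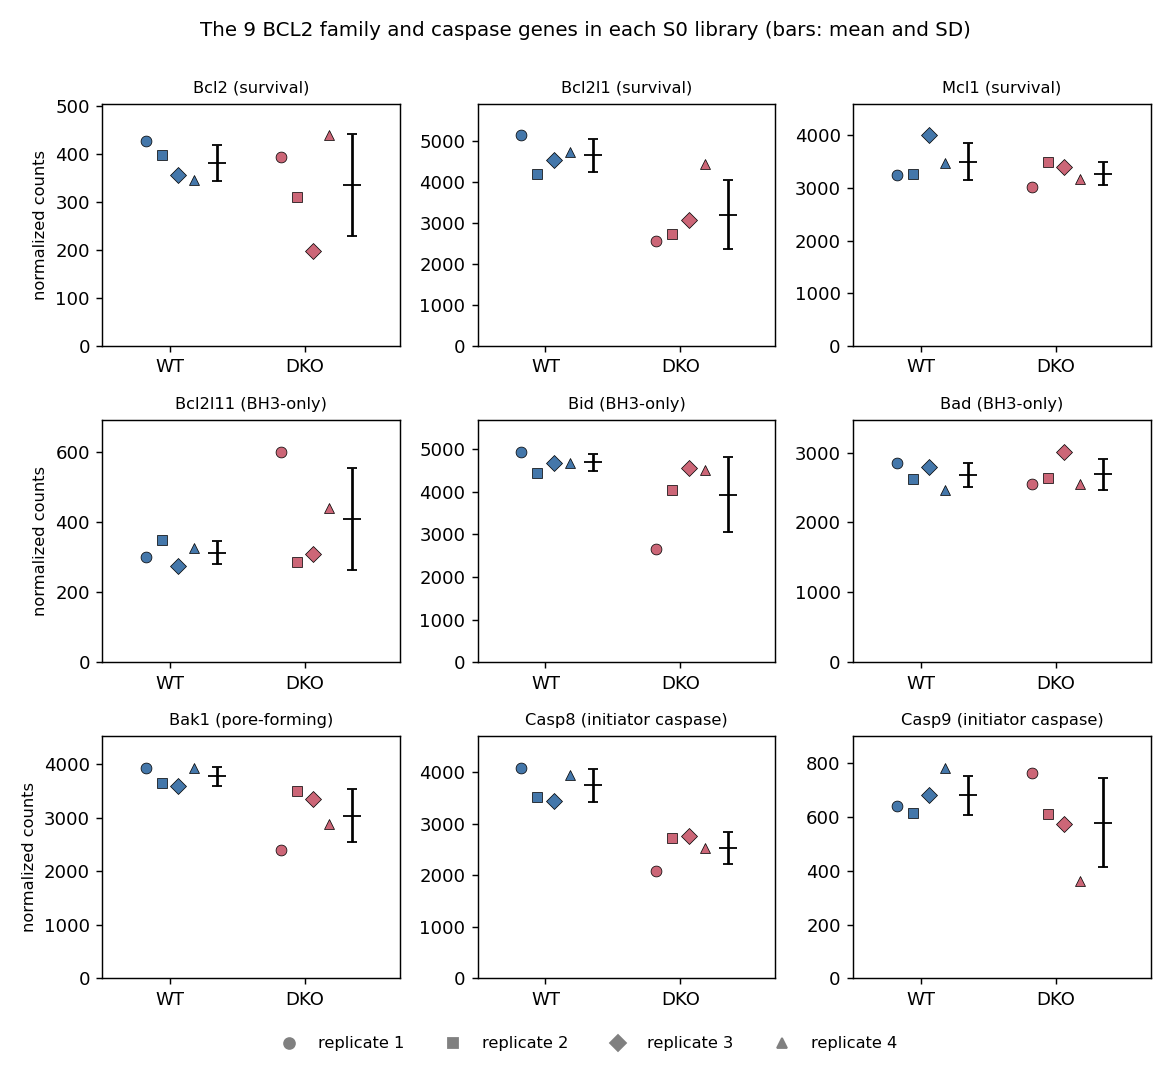
Normalized counts (vertical axes, each starting at 0) of the 9 members in the 4 WT libraries (blue) and the 4 DKO libraries (red), with replicates told apart by marker shape and black bars for the mean and SD. Casp8 and Bak1 show no overlap, with DKO lower, and Bcl2l1 has DKO replicate 4 at 4420, inside the WT range of 4184 to 5130.

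Of the survival members, Bcl2l1 was lower in DKO while Bcl2 and Mcl1 gave no call. Bcl2l1 (ENSMUSG00000007659.18, GRCm38 chr2:152780668-152831728, minus strand) encodes BCL-XL and had 5130, 4184, 4516 and 4724 normalized counts in WT replicates 1 to 4. DKO replicates 1 to 4 had 2563, 2728, 3061 and 4420. DKO replicates 1 to 3 lay below every WT library and replicate 4 lay among them. The means were 4638 ± 396 (SD, n = 4) for WT and 3193 ± 844 (SD, n = 4) for DKO. The log2 fold change was -0.54 with a standard error of 0.16 and a 95% interval of -0.91 to -0.17 (edgeR adjusted p = 0.0437), and the exact two-sided permutation test over 70 arrangements gave p = 0.0571. This call was close to the threshold. It was lost, with adjusted p = 0.117, 0.0715, 0.0761 and 0.0962 without WT replicates 1, 2, 3 and 4 and adjusted p = 0.0693, 0.0940 and 0.0763 without DKO replicates 1, 2 and 3, and was kept without DKO replicate 4 (log2 fold change -0.73, adjusted p = 0.00679). It was also lost under upper-quartile scaling (-0.43, adjusted p = 0.0811), and the log2 fold change stayed below 0 in all of these fits.

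Mcl1 (ENSMUSG00000038612.16, chr3:95658788-95663176, plus strand) encodes a short-lived survival protein and had 3253, 3263, 4000 and 3466 normalized counts in WT replicates 1 to 4. The DKO values, in the same order, were 3022, 3492, 3397 and 3174. The groups overlapped, and the spread between libraries was narrow enough to bound the difference. Its log2 fold change was -0.10 with a standard error of 0.09 and a 95% interval of -0.30 to 0.11 (edgeR adjusted p = 0.499).

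Bcl2 (ENSMUSG00000057329.7, chr1:106538178-106714274, minus strand) had 427, 398, 355 and 345 normalized counts in WT replicates 1 to 4. In DKO the values, in order, were 394, 309, 197 and 439. DKO replicate 3 was the lowest of all 8 libraries and DKO replicate 4 the highest. The log2 fold change was -0.19 with a standard error of 0.26 and a wide 95% interval of -0.76 to 0.39 (edgeR adjusted p = 0.644). It was 0.00 without DKO replicate 3 and -0.34 without DKO replicate 4. Against the 4 WT libraries, DKO replicate 3 alone, the DKO library with Y-linked transcripts, gave -0.97, a value with no spread of its own.

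Levels of different genes were compared per kb of exon, as normalized counts divided by the summed length of all annotated exons of the gene. Which isoforms were expressed was not examined, so that levels of different genes are compared only roughly. On this scale Mcl1 had 1023 ± 103 and Bcl2l1 1011 ± 86.4 in WT, and neither was higher in all libraries, while Bcl2 had 41.6 ± 4.16. Transcripts for BCL-XL and MCL1 thus made up nearly all of the survival members' level in WT. Mcl1 accounted for 49.2% ± 3.47, Bcl2l1 for 48.7% ± 3.33 and Bcl2 for 2.01% ± 0.26 of their summed level per kb in WT (SD, n = 4). In DKO these shares were 57.1% ± 6.27, 40.7% ± 6.13 and 2.17% ± 0.69. The share of Bcl2l1 was 37.6%, 36.0% and 39.7% in DKO replicates 1 to 3, below the WT range of 44.9% to 52.8%, and 49.7% in DKO replicate 4, within it.

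None of the 3 BH3-only members passed the edgeR test, with 0 at an unadjusted p under 0.05 and 0 by DESeq2. Bid (ENSMUSG00000004446.12, chr6:120891930-120916853, minus strand) encodes the substrate through which caspase 8 reaches mitochondria and had 4949, 4443, 4688 and 4689 normalized counts in WT replicates 1 to 4. In DKO replicates 1 to 4 it had 2652, 4035, 4559 and 4508. DKO replicate 1 stood apart from the others, and replicates 3 and 4 lay within the WT range. The log2 fold change was -0.25 with a standard error of 0.15 and a 95% interval of -0.60 to 0.09 (edgeR adjusted p = 0.275), and was -0.10 without DKO replicate 1. Of the exon bases of Bid, 17.7% are shared with Bcl2l13 on the opposite strand, and since no source says whether counting used strand, reads of the shared part cannot be assigned with certainty.

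Bad (ENSMUSG00000024959.13, chr19:6941861-6951899, plus strand), whose product is silenced by phosphorylation under growth factors, had 2852, 2624, 2794 and 2462 normalized counts in WT replicates 1 to 4. DKO replicates 1 to 4 had 2548, 2639, 3017 and 2547. The groups overlapped, with DKO replicate 3 above the WT libraries and WT replicate 4 below the DKO libraries. On the log2 scale the change was 0.00 with a standard error of 0.09 and a 95% interval of -0.20 to 0.20 (edgeR adjusted p = 0.987), and 20.5% of its exon bases are shared with Gpr137 on the opposite strand.

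Bcl2l11 (ENSMUSG00000027381.16, chr2:128126038-128162547, plus strand), which encodes BIM, had 302, 349, 275 and 327 normalized counts in WT replicates 1 to 4. The DKO values, in the same order, were 602, 285, 309 and 442. DKO replicates 1 and 4 were above every WT library and replicates 2 and 3 among them. The change on the log2 scale was 0.39 with a standard error of 0.26 and a 95% interval of -0.19 to 0.97 (edgeR adjusted p = 0.318), and was 0.14 without DKO replicate 1.

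Bak1 (ENSMUSG00000057789.13, chr17:27019810-27029009, minus strand), the pore-forming member, had 3932, 3647, 3602 and 3929 normalized counts in WT replicates 1 to 4. In DKO the values, in order, were 2403, 3500, 3353 and 2887. The DKO libraries all lay under the WT range, although DKO replicate 2 lay only just below WT replicate 3. The means were 3778 ± 178 (SD, n = 4) for WT and 3036 ± 496 (SD, n = 4) for DKO. The log2 fold change was -0.32 with a standard error of 0.12 and a 95% interval of -0.58 to -0.05. The exact permutation test gave p = 0.0286, the smallest that 4 against 4 libraries allow, but the edgeR test did not pass over all genes (adjusted p = 0.0855), so Bak1 is not counted as changed. Without TMM scaling the adjusted p was 0.0452. Bak1 and Casp8 were the 2 of 9 members whose DKO libraries all lay below WT, beside 14.6% of all genes tested, and no member had all DKO libraries above WT, beside 13.5% of all genes. Of the exon bases of Bak1, 18.2% are shared with Ggnbp1 on the opposite strand.

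Casp8 was the member with the clearest difference. Casp8 (ENSMUSG00000026029.14, chr1:58795374-58847503, plus strand), the initiator caspase of death receptors, which also restrains necroptosis, had 4089, 3515, 3448 and 3959 normalized counts in WT replicates 1 to 4. In DKO replicates 1 to 4 it had 2092, 2728, 2765 and 2538. No DKO library came within the WT range. The means were 3753 ± 319 (SD, n = 4) for WT and 2531 ± 309 (SD, n = 4) for DKO. The gene fell by 0.57 on the log2 scale, with a standard error of 0.11 and a 95% interval of -0.81 to -0.33 (edgeR adjusted p = 0.00821, exact permutation p = 0.0286). That is a level of 0.674 of WT. The call was kept in every alternative fit with several libraries in each group, with log2 fold changes between -0.61 and -0.46 and adjusted p up to 0.0402. DKO replicate 3 alone against WT, libraries that all had Y-linked transcripts, gave -0.46 for Casp8, -0.62 for Bcl2l1 and -0.19 for Bak1. No call is drawn from these values, since 1 library has no spread of its own and DKO libraries differed more among themselves (chi-square per gene 55.7 to 128) than WT libraries (18.3 to 41.6).

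Casp9 (ENSMUSG00000028914.13, chr4:141793612-141815976, plus strand), the initiator caspase of the apoptosome, had 641, 616, 681 and 782 normalized counts in WT replicates 1 to 4. DKO replicates 1 to 4 had 765, 610, 574 and 363. DKO replicate 4 was the lowest and DKO replicate 1 lay within the WT range. The fitted log2 fold change was -0.24 with a standard error of 0.22 and a 95% interval of -0.73 to 0.26 (edgeR adjusted p = 0.481). It was -0.40 without DKO replicate 1 and -0.06 without DKO replicate 4.

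Bak1 and Casp8 were below the WT range in all 4 DKO libraries, and the other members outside it differed from library to library. DKO replicate 1 was below the WT range in 5 members, Bcl2l1, Mcl1, Bid, Bak1 and Casp8, and above it in Bcl2l11. It was the library with the highest mesenchyme sum and the lowest neutrophil and mast cell sum, and without it Casp8 fell by 0.48 (adjusted p = 0.00597). DKO replicate 2 was below the WT range in 6 members and above it in 0, DKO replicate 3 below in 5 and above in 1, and DKO replicate 4 below in 4 and above in 2. Over all genes tested, 34.3% to 35.8% were below the WT range and 32.5% to 38.8% above it in a DKO library.

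Ordered by level per kb of exon in WT, Bak1 stood first with 1569 ± 73.8, above Bid in all 4 libraries and without overlap. The order rests on all annotated exons, and Bak1, Bid and Bad share exon bases with genes on the opposite strand. Bid with 1322 ± 58.2 and Casp8 with 1297 ± 110 followed and overlapped, as did Bad with 1049 ± 68.8, Mcl1 and Bcl2l1. Casp9 with 131 ± 14.1 lay far below these and above Bcl2 and Bcl2l11, which overlapped, the last with 39.0 ± 3.98. In DKO the order was Bak1 with 1261 ± 206, Bid with 1109 ± 251, Bad with 1051 ± 87.4, Mcl1 with 957 ± 62.3, Casp8 with 875 ± 107, Bcl2l1 with 696 ± 184, Casp9 with 111 ± 31.9, Bcl2l11 with 51.0 ± 18.2 and Bcl2 with 36.5 ± 11.6 (SD, n = 4). Of the neighbours in this order, only Bcl2l1 and Casp9 did not overlap. Casp8 ranked 3 of 9 in WT and 5 of 9 in DKO, where it lay below Mcl1 in all 4 libraries.

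Beyond the 9 members, 69 genes of 10 other lists of the apoptosis machinery were examined, of which 62 were tested. Of these, 6 rose and 11 fell in DKO (edgeR, adjusted p under 0.05), beside 10.7% and 10.8% of all genes, and the median log2 fold change was -0.09. DESeq2 called 8 higher and 15 lower, and upper-quartile scaling gave 7 higher and 8 lower. These counts depended on single libraries, with 10 higher without DKO replicate 1, and with 6 lower without WT replicate 1 or WT replicate 4 and 7 without WT replicate 2.

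**Figure D2:**
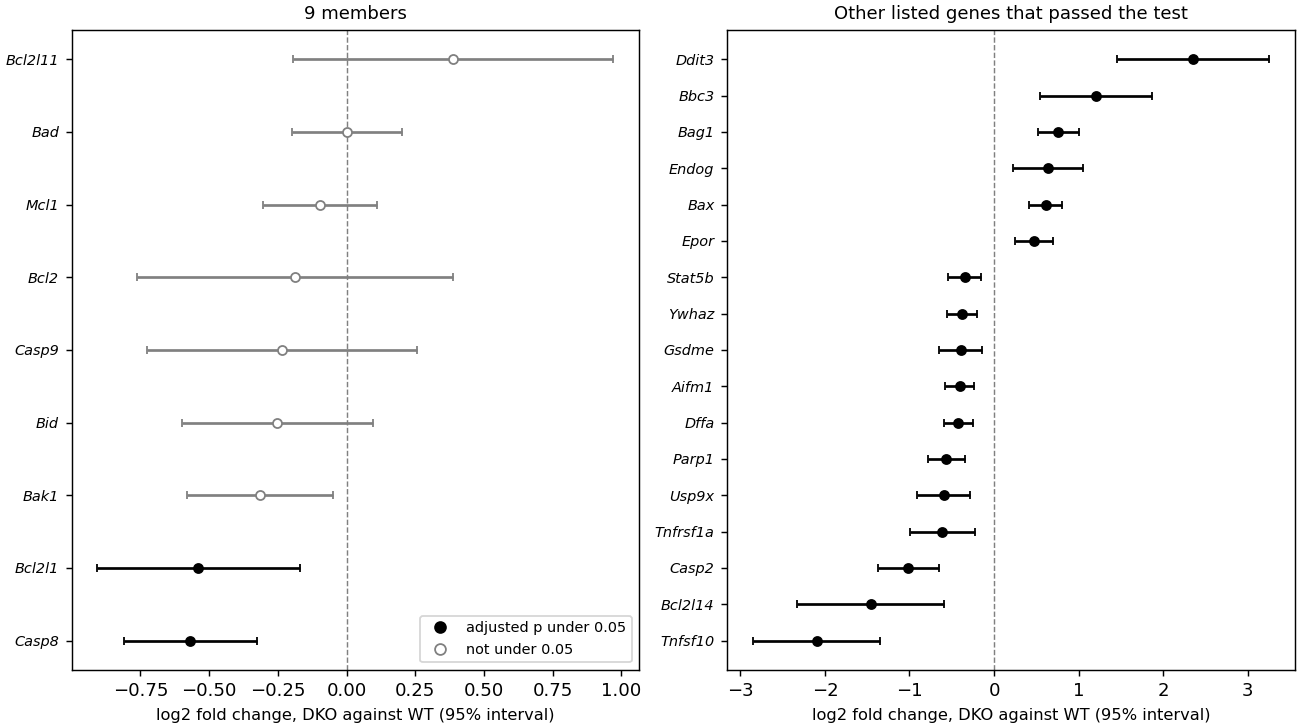
Log2 fold changes, DKO against WT (horizontal axes, with 95% intervals), of the 9 members (left) and of the 17 other listed genes that passed the edgeR test (right), with filled points for an adjusted p under 0.05. Casp8 at -0.57 and Bcl2l1 at -0.54 are the 2 filled members, and the others span from Tnfsf10 at -2.10 to Ddit3 at 2.35.

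Bax and Bbc3 rose among the other pore-forming and BH3-only genes. All 6 had a higher mean in DKO, and 2 of the 6 rose, beside 10.7% of all genes. Their median log2 fold change was 1.23, beside 0.03 over all genes. This list leaves out the members of these classes, with -0.25 for Bid, 0.00 for Bad, 0.39 for Bcl2l11 and -0.32 for Bak1. Bax, the partner of Bak1 in forming the pore, had 7233, 7061, 7976 and 6630 normalized counts in WT replicates 1 to 4 and 9991, 11208, 11005 and 11905 in DKO replicates 1 to 4. The groups were well apart, and Bax rose by 0.61 on the log2 scale (standard error 0.09, edgeR adjusted p = 0.00303). Bbc3, which encodes the BH3-only protein PUMA, had 135, 253, 234 and 225 in WT and 356, 457, 397 and 746 in DKO, also apart. Bbc3 rose by 1.21 (standard error 0.30, edgeR adjusted p = 0.0206). This call was lost without WT replicate 1 (adjusted p = 0.0608) or WT replicate 4 (adjusted p = 0.0587). DKO replicate 3 alone against WT gave 0.89. The remaining genes of this list, Bok, Bmf, Bik and Hrk, had log2 fold changes of 0.73 to 2.60 and did not pass. Bik and Hrk were low, with at most 31.3 and 13.8 normalized counts in any WT library. Bok had 550 in DKO replicate 1, 155 to 260 in the other DKO libraries and 138 to 205 in WT. Bmf was highest in DKO replicate 1, with 751 normalized counts, while the other DKO libraries had 159 to 284 and the WT libraries 91.2 to 203.

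Among the other caspases, 1 of 5 tested fell and 0 rose, beside 10.8% and 10.7% of all genes. At an unadjusted p under 0.05, 1 was lower and 1 higher. Casp2, an initiator caspase linked to genome damage, had 3770, 3621, 2596 and 4062 normalized counts in WT replicates 1 to 4 and 1602, 2127, 1778 and 1446 in DKO replicates 1 to 4. The groups did not overlap, and Casp2 fell by 1.01 on the log2 scale (standard error 0.16, edgeR adjusted p = 0.00448), a larger fitted change than that of any of the 9 members.

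Of the other BCL2-like genes, 1 of 3 tested fell, beside 10.8% of all genes. This was Bcl2l14, which fell by 1.46 (standard error 0.39, edgeR adjusted p = 0.0263), from 129 ± 17.4 to 46.9 ± 20.7 normalized counts (SD, n = 4 each). Its call was lost without DKO replicate 4 and without WT replicate 1, 2 or 4, with adjusted p up to 0.0821. None of the other survival BCL2 genes passed the edgeR test, with 0 of the 2 tested at an unadjusted p under 0.05. Bcl2l2 had 240 to 310 in WT and 297 to 436 in DKO, and the nearly identical copies of Bcl2a1 had at most 32.1 in any library, where reads of the copies cannot be told apart.

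Of the factors that mitochondria release and the apoptosome, 1 of 6 rose and 1 fell, beside 10.7% and 10.8% of all genes. Endog, a mitochondrial nuclease, rose by 0.63 (standard error 0.19, edgeR adjusted p = 0.0376), a call lost without any one library other than DKO replicate 1, with adjusted p up to 0.107. Aifm1, an X-linked oxidoreductase of mitochondria, fell by 0.41 (standard error 0.08, edgeR adjusted p = 0.00805). With DKO replicate 3 as the only DKO library, so that every library had Y-linked transcripts, Aifm1 was at -0.30 and Endog at 0.68. No call is drawn from that fit. Apaf1, Cycs, Diablo and Htra2 had log2 fold changes of -0.52 to 0.20 and did not pass.

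In the death receptor pathway, 2 of 10 genes tested fell and 0 rose, beside 10.8% and 10.7% of all genes. At an unadjusted p under 0.05, 3 were lower and 1 higher. Tnfsf10, which encodes the ligand TRAIL, had 117, 128, 140 and 156 normalized counts in WT replicates 1 to 4 and 29.4, 43.0, 31.7 and 21.9 in DKO replicates 1 to 4. The gap between the groups was wide, and Tnfsf10 fell by 2.10 (standard error 0.34, edgeR adjusted p = 0.00458). Tnfrsf1a, a receptor of TNF, fell by 0.61 (standard error 0.17, edgeR adjusted p = 0.0319), but not without any one library other than DKO replicate 2, with adjusted p up to 0.0845. Fadd, the adaptor that brings caspase 8 to receptors, had a log2 fold change of -0.19 (adjusted p = 0.299), and Cflar, the catalytically inactive relative that restrains caspase 8, of -0.45 (adjusted p = 0.0671).

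Genes for caspase substrates fell in 3 of 5 cases, beside 10.8% of all genes tested. Parp1, a DNA repair enzyme, fell by 0.57 (standard error 0.10, edgeR adjusted p = 0.00565). Dffa, the inhibitor of the nuclease that cuts DNA in apoptosis, fell by 0.42 (standard error 0.08, edgeR adjusted p = 0.00653). Both were without overlap, beside 14.6% of all genes with every DKO library below WT. Gsdme, a gasdermin cut by caspases, fell by 0.40 (standard error 0.11, edgeR adjusted p = 0.0365). Its call was lost without any one library other than DKO replicate 2, with adjusted p up to 0.107. With DKO replicate 3 as the only DKO library Gsdme was at -0.40. Of the 8 genes tested among the inhibitors of apoptosis, 0 passed the edgeR test, with 1 lower at an unadjusted p under 0.05, Birc3, and log2 fold changes of -0.57 to 0.26. Counts of the near-identical Naip genes are uncertain.

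Partners of BCL2 proteins and regulators of their genes were mixed. Of 8 partners, Bag1, a co-chaperone that binds BCL2, rose by 0.76 (standard error 0.11, edgeR adjusted p = 0.00313), from 2005 ± 223 to 3399 ± 339 normalized counts (SD, n = 4 each). Usp9x, an X-linked deubiquitinase that stabilizes MCL1, fell by 0.59 (standard error 0.14, adjusted p = 0.0178), and was lost without WT replicate 1 (adjusted p = 0.0599) or WT replicate 4 (adjusted p = 0.0566). Ywhaz, a 14-3-3 protein that binds BAD, fell by 0.38 (standard error 0.08, edgeR adjusted p = 0.0126). With DKO replicate 3 as the only DKO library Ywhaz was at -0.30. Of 9 regulators, Ddit3, the stress-induced factor CHOP, had 733, 644, 673 and 620 in WT replicates 1 to 4 and 2640, 2570, 1548 and 6894 in DKO replicates 1 to 4. It rose by 2.35 (standard error 0.40, edgeR adjusted p = 0.00547), and by 1.76 without DKO replicate 4, the highest library. DKO replicate 3 alone gave 1.20. Epor, the erythropoietin receptor, rose by 0.47 (standard error 0.10, edgeR adjusted p = 0.0123). Stat5b, which acts downstream of it, fell by 0.35 (standard error 0.09, edgeR adjusted p = 0.0212). The Stat5b call was lost without WT replicate 1, 2 or 4, with adjusted p up to 0.0641. With DKO replicate 3 as the only DKO library Stat5b was at -0.25.

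**Figure D3:**
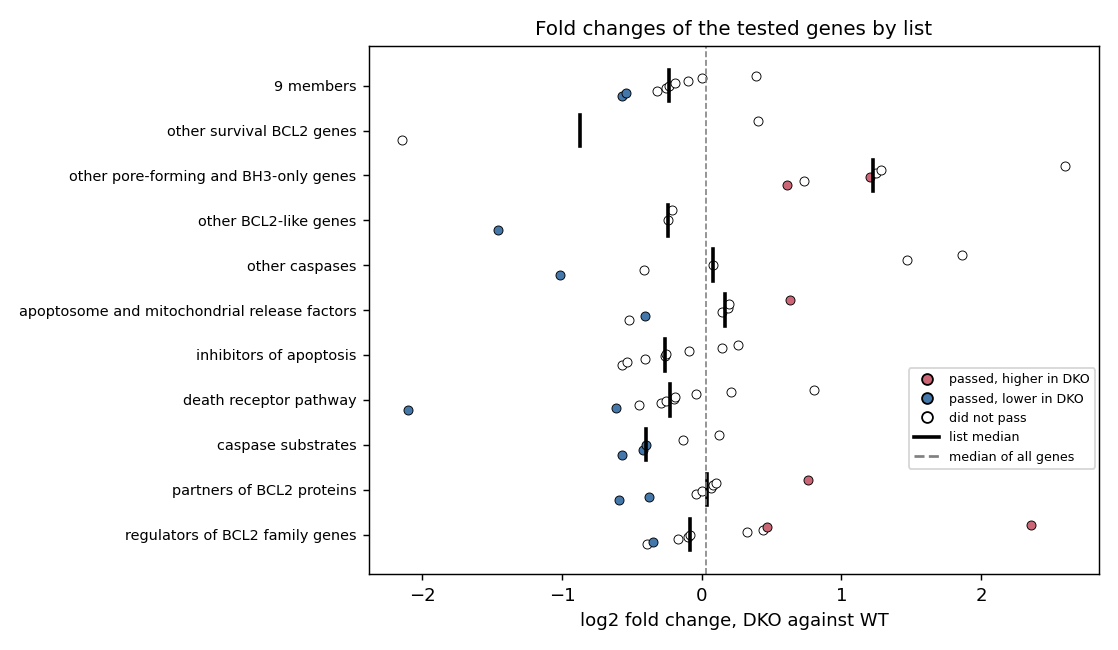
Log2 fold changes, DKO against WT (horizontal axis), of the tested genes of the 9 members and of 10 other lists (rows), with red and blue points for genes that rose and fell, open points for genes that did not pass, black bars for list medians and a dashed line for the median of all genes, 0.03. The members have a median of -0.24, and the other pore-forming and BH3-only genes have all 6 points above 0, of which 2 passed.

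Ratios within a library do not depend on the scaling between libraries. The pairs were chosen after the values had been seen, and are a description. The log2 ratio of Bcl2l1 to Bax was -0.50, -0.76, -0.82 and -0.49 in WT replicates 1 to 4 and -1.96, -2.04, -1.85 and -1.43 in DKO replicates 1 to 4. DKO libraries were all lower, including replicate 4, in which Bcl2l1 itself was within the WT range. The ratio of Bcl2l1 to Bbc3 averaged 4.49 ± 0.52 in WT and 2.73 ± 0.19 in DKO, and that of Bak1 to Bax averaged -0.93 ± 0.16 and -1.87 ± 0.20 (SD, n = 4), both without overlap. Since Bak1 was lower and Bax higher in every DKO library than in any WT library, their ratio could not overlap. The ratio of Bcl2l1 to Mcl1 averaged 0.41 ± 0.20 in WT and -0.07 ± 0.37 in DKO and overlapped. Ratios of Bcl2l1 to Bak1, of Casp8 to Casp9, of Casp8 to Cflar and of Mcl1 to Bcl2l11 overlapped as well.

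**Figure D4:**
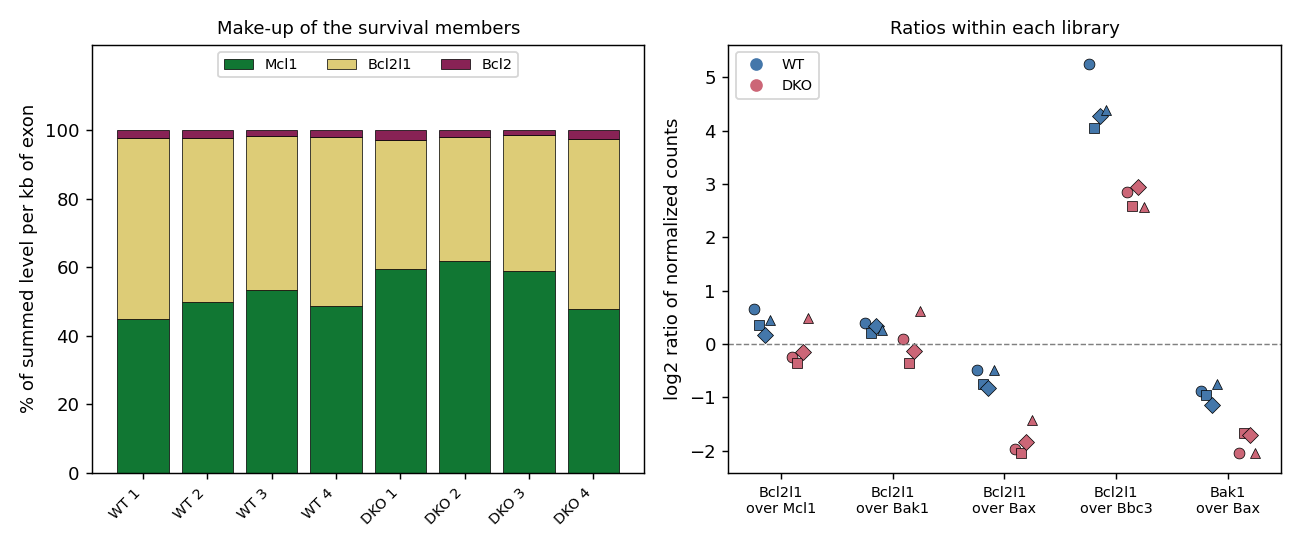
Left, the percentage of the summed level per kb of exon that Mcl1 (green), Bcl2l1 (yellow) and Bcl2 (purple) make up in each library. Right, log2 ratios of normalized counts of 5 pairs of genes in the WT libraries (blue) and DKO libraries (red), with replicates told apart by the marker shapes circle, square, diamond and triangle, where Bcl2l1 over Bax, Bcl2l1 over Bbc3 and Bak1 over Bax do not overlap.

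For the members that passed, the genes with the most similar pattern were ranked by Pearson's r of log2 normalized counts over the 8 libraries, among 12339 genes with a mean of at least 100 normalized counts. For Casp8 these were Anks1 (r = 0.993, log2 fold change -0.81), Cpsf3 (r = 0.992, -0.48) and Fmnl1 (r = 0.991, -1.11), which all passed the edgeR test. For Bcl2l1 they were Cercam (r = 0.975, -0.26), Gm45837 (r = 0.973, -4.16) and Mrps27 (r = 0.972, -0.34). Of the latter, Cercam (edgeR adjusted p = 0.130) and Gm45837 (edgeR adjusted p = 0.0557) did not pass. Pearson's r compares pattern and not size. The values of r describe 8 libraries that share the difference between genotypes and the scaling, and carry no test.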

How the data were processed

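The authors trimmed the reads of 4 WT and 4 DKO libraries with fastp 0.21.0, mapped them to mm10 (GRCm38) with HISAT2 2.2.1, removed alignments of low quality and counted genes with StringTie 1.3.3b and prepDE. The deposited values are whole-number counts per gene, neither normalized nor pooled. Whether counting used strand is not given in the sources used here. Of 52636 identifiers, 52489 matched a symbol when the version was ignored.

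Groups came from the labels. The analysis used R 4.3.3 and edgeR 4.0.16 (filterByExpr, TMM, robust quasi-likelihood test, Benjamini-Hochberg adjustment over all 17378 genes tested, no covariate, adjusted p under 0.05). For single members, log2 CPM values were also permuted over all arrangements of the libraries (exact, two-sided). The steps were tested on simulated data. Libraries of 1 group differed beyond counting error (chi-square per gene 18.3 or more), so none was counted as a copy. The alternatives were DESeq2 1.42.0, other scalings, filters and gene sets, each library left out, a block for replicate number, only libraries with Y-linked transcripts, and a fold-change threshold. At these depths the spread between libraries, more than counting error, limits the precision of the abundant members.

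The members and lists were chosen with earlier results of these data known. The rule for naming genes took the 9 members, each listed apoptosis gene that passed, the 3 genes most like each member that passed, the targeted genes and Xist and Ddx3y. Genes of the lists that did not pass and are named were chosen after their values were seen. Protein sequences were not used here, and some genes of the lists are not reported here.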

Additional observations from a re-analysis of the deposited data

How the results depend on the processing

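Of the 9 members, Casp8 stayed lower and past the threshold in all 17 alternative fits, 1 of which, that among libraries with Y-linked transcripts, had a single DKO library assumed to vary like WT, and no member was higher under any of the 18 alternatives. The number of members lower, 2 in the report, was 1 with the replicate block and under upper-quartile scaling, 3 without TMM, 3 among libraries with Y-linked transcripts, 0 when a log2 fold change beyond 1 was also required, and 1 to 2 with a library left out. For the other apoptosis genes, the 6 higher became 2 with the fold-change requirement and 4 to 10 with a library left out. The 11 lower became 6 with the replicate block, 3 with the fold-change requirement and 6 to 12 with a library left out, and were 8 under upper-quartile scaling and among libraries with Y-linked transcripts. The causes were not tested. Upper-quartile scaling moved the median log2 fold change of all genes up by 0.11. Scaling moves all genes by nearly the same amount, so the place of a member relative to that median tells nothing further. Under it Bcl2l1 was at -0.43 (edgeR adjusted p = 0.0811), its call lost, and Casp8 at -0.46 (edgeR adjusted p = 0.0123). Mcl1 was at 0.01 under that scaling. Replicate numbers did not pair the libraries, since same-numbered WT and DKO libraries correlated at -0.09, 0.04, -0.02 and -0.01 in their deviations from the group means. With the replicate block, 2109 genes were called in place of 3745 and Bcl2l1 had adjusted p = 0.0564. The counts of all genes called were 5393 with DESeq2, 1756 without WT replicate 1, 2061 without WT replicate 2 and 1905 without WT replicate 4. Over the named genes no direction of a called value was reversed, 383 values kept their side of the threshold, 57 calls were lost and 2 were gained, Bak1 without TMM and Bcl2 with the single DKO library.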
